A study of Mus musculus with 20 samples.

Results

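The potassium channel genes described here were 61 of the 55416 genes in the whole-body tables. They were taken by symbol, as every gene whose name starts with Kcn followed by a lower-case letter, without Kcnj11, without symbols ending in os or containing -ps, and with a mean of at least 0.5 CPM (counts scaled to the size of the library) over the 12 whole-body libraries. They were thus selected on their mean level in that line, and neither genotype nor sex entered the rule. Of 96 genes with such a name, 35 stayed below that mean, and 6 of those were at 0 in all 12 libraries. Just inside the minimum were Kcnj5 at 0.576, Kcnk10 at 0.590 and Kcnc1 at 0.635 CPM. Just outside were Kcna4 at 0.445, Kcns3 at 0.387 and Kcnmb4 at 0.358 CPM. The minimum could favour one group: Kcng3, Kcnc1 and Kcnj5 reached it in the mean of females but not of males, Kcnk10 in males but not females, and Kcng3 and Kcnj5 in controls but not knockouts. For those genes a difference between the groups is partly fixed by the selection.

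The set is wider than its working name. By symbol it held 25 pore subunits of voltage-gated channels and 9 accessory subunits (Kcnab, Kcne and Kcnip). It also held 8 Kcnm, Kcnn and Kcnu genes, grouped here as calcium- or sodium-activated, 9 inward rectifiers, 9 two-pore channels and Kcnq1ot1. The groups follow the symbols alone, and how each channel is gated was not checked. Kcnq1ot1 is a noncoding RNA transcribed opposite Kcnq1 and encodes no channel. Kcnj8 encodes Kir6.1, which is itself a pore subunit of ATP-sensitive potassium (KATP) channels, so that channel type was not wholly removed by leaving out Kcnj11, which encodes Kir6.2. Kcnj8 stood low, at 0.654 ± 0.284 TMM-scaled CPM per kb of exon (SD, n = 12 whole-body libraries).

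All libraries came from isolated pancreatic islets of adult C57BL/6J mice, read as poly(A) RNA. The whole-body line compared Cpeb1 KO/KO with Cpeb1 +/+ mice, with 3 animals of each genotype and sex. The beta-cell line compared Cpeb1 flx/flx; Ins1-Cre/+ with Cpeb1 +/+; Ins1-Cre/+ mice, with 2 animals of each genotype and sex, so that both of its genotypes carried a Cre recombinase driven from the insulin gene Ins1. Cpeb1 encodes an RNA-binding protein that binds the cytoplasmic polyadenylation element (CPE) near the 3′ end of messenger RNAs. Whole-body females were 188, 165 and 98 days old (knockout) and 188, 188 and 109 days old (control), and males 155, 111 and 139 (knockout) and 123, 122 and 111 (control). In the beta-cell line both genotypes had females of 108 and 107 days and males of 111 and 80 days. The labels put the lines in different batches, so levels of the lines are set side by side without a test.

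Library totals ran from 41756830 to 112320368 counts in the whole-body line and from 40117873 to 101438842 in the beta-cell line. Cpeb1 was lower in the libraries labelled knockout but not absent: 24.99 to 38.03 CPM against 38.3 to 65.3 CPM in whole-body controls, and 27.7 to 30.3 against 50.8 to 69.2 CPM in the beta-cell line. The labels do not say which part of the gene is deleted. The log2 difference of Cpeb1 over both sexes was -0.93 (edgeR adjusted p = 0.128) and -1.06 (adjusted p = 0.0224). The islet label held: each of 9 beta, 8 alpha and 6 delta cell markers was above 0 in every library. In 1 whole-body library, control female 1, 60.5% of counts fell on the ribosomal RNA gene Rn18s. All levels below are CPM after trimmed-mean (TMM) scaling. In such bulk tissue, fewer cells of a type and less RNA per cell cannot be told apart.

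Potassium channels let potassium leave the cell and pull the membrane toward rest. In a beta cell, glucose metabolism closes KATP channels and the membrane depolarises. Calcium then enters and insulin is released. Voltage-gated, calcium-activated, two-pore and inward-rectifier channels shape the action potentials that follow, repolarise the membrane and are targets of hormones that restrain secretion. Alpha and delta cells of the islet carry their own sets of these channels.

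Because the protein encoded by Cpeb1 binds the CPE, this element was sought in the members. The last 100 bases of each member's longest complete coding transcript were searched for TTTTAT or TTTTAAT on the transcript strand. Of the 60 members with a complete 3′ end, 10 (16.7%) held at least 1 element, against 2805 of 14937 genes tested (18.8%), so the share among channel genes was close to that of all genes. The sites of the 5 carriers whose values are given below follow, in the GRCm38 genome with GENCODE gene models, each lying in the 3′ untranslated region and written 5′ to 3′ with the element in capitals.
Kcnh1 (chr1:192510111-192510140, plus strand): aaaaaagtttaaTTTTATttattatggtaa
Kcnh1 (chr1:192510136-192510159, plus strand): ggtaataaactaTTTTATatgtga
Kcnip3 (chr2:127456507-127456536, minus strand): cagtcctatataTTTTAATaaaagaaactt
Kcnq3 (chr15:65986434-65986463, minus strand): cttacctgatttTTTTATgttctatctcaa
Kcnh8 (chr17:52979138-52979167, plus strand): agtggggttataTTTTATcaatgaaataaa
Kcne3 (chr7:100184802-100184831, plus strand): ggatatataatcTTTTAATgtatgatcttc
The other carriers were Kcne4, Kcnh3, Kcnj2, Kcnj4 and Kcnq1. Kcnh1 had 2 elements, the second starting 12 bases from the transcript's end. Kcnk16, the most abundant member, had none in this window. A match of these letters is a description and not a measured binding site.

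The channel transcripts of the islet were dominated by 1 gene. Kcnk16, on chr14:20261376-20269199, encodes TALK-1, a two-pore channel of the islet that limits calcium entry. To compare genes, levels were divided by exon length (CPM per kb). Kcnk16 stood at 216 ± 43.6 per kb (SD, n = 12) in the whole-body line, 8.90 times the next member, and at 227 ± 30.5 (n = 8) in the beta-cell line. It made up 53.0% to 69.9% of the summed per-kb level of all 61 members in each whole-body library and 56.1% to 63.8% in each beta-cell library. These shares are of transcripts and say nothing of channel proteins or currents.

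Kcnmb2, a subunit that inactivates the large-conductance calcium-activated channel, came next at 24.2 ± 3.73 per kb in the whole-body line. Kcnk1 (TWIK-1, a two-pore channel) at 13.0 ± 2.37 and Kcnip1 (a calcium-binding partner of Kv4 channels) at 12.4 ± 2.16 did not differ beyond their spread. Kcnh2 and Kcnh6, both of the ether-a-go-go-related family that repolarises excitable cells, had 9.79 ± 1.56 and 7.52 ± 1.36 per kb. Kcnn3 (a small-conductance calcium-activated channel) at 4.67 ± 1.53 and Kcnk3 (TASK-1) at 4.55 ± 1.25 overlapped. Kcnf1, a silent subunit that modifies other pore subunits, closed the 10 highest at 3.09 ± 1.22 per kb.

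Those 10 genes held 87.9% of the summed level of 340.8 per kb, and only 22 of the 61 members were above 1 per kb. The highest inward rectifier was Kcnj12 (Kir2.2) at 2.28 ± 0.879 per kb, and Kcnq1ot1 was lowest of all at 0.0369 ± 0.0695, a mean that rested on control female 1: that library had 23.8 CPM and the other 11 had 0.981 to 3.79, and without it the level was 0.0170 ± 0.00851 per kb. By family, two-pore channels held 69.2% of the summed level, voltage-gated pores 11.8%, accessory subunits 7.28% and inward rectifiers 1.65%. The genes grouped by symbol as calcium- or sodium-activated held 10.1%. The beta-cell line gave a like picture: its 10 highest held 88.4%, and 9 genes were among the 10 highest in both lines. Across the 61 genes the levels in the lines had a Spearman rho of 0.915, a description over genes of the same tissue in different batches.

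**Figure D1:**
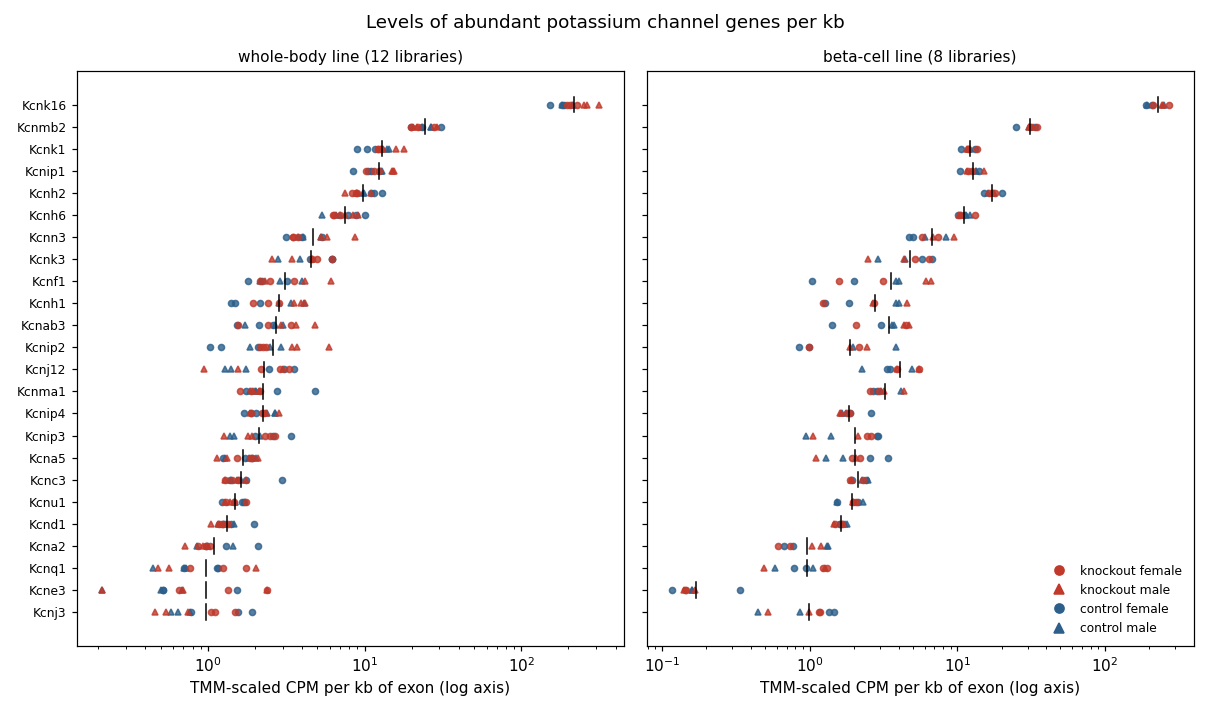
Level of abundant potassium channel genes in each library, as TMM-scaled CPM per kb of exon on a log axis, for the whole-body line (left, 12 libraries) and the beta-cell line (right, 8 libraries). Red marks knockouts, blue controls, circles females, triangles males, and the black bar the mean; Kcnk16 stands apart in every library, with means of 216 and 227 per kb.

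Members varied more between animals of a group than most genes did. Their median within-group SD on the log2 scale was 0.345 against 0.262 for all genes tested in the whole-body line, and 0.389 against 0.199 in the beta-cell line. The median level of members was 2.81 CPM against 7.91 CPM over all genes tested in the whole-body line. Of the 10 highest per kb, 9 had a within-group SD below the median of the members in the whole-body line, from 0.127 (Kcnip1) to 0.328 (Kcnk3). The exception was Kcnf1 at 0.498.

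Loss of Cpeb1 in the whole body moved no potassium channel gene past the test. In edgeR's quasi-likelihood test with Benjamini-Hochberg adjustment over all 18359 genes, 0 of 61 members were called in females, 0 in males and 0 in the mean of both sexes (adjusted p under 0.05), where 0.00545%, 0.0218% and 0.0327% of all genes were called. At an unadjusted p under 0.05 there were 10 members in females (4 higher, 6 lower in knockouts), 10 in males (6 higher, 4 lower) and 9 in the mean (6 higher, 3 lower). The shares of members were 16.4%, 16.4% and 14.8%, against 11.2%, 7.47% and 5.9% of all genes. Without Kcng3 and Kcnj5, which reached the minimum in controls only, the shares of 59 members were 15.3%, 16.9% and 13.6%. DESeq2, another count model, called 1, 1 and 2 members and 0.783%, 1.64% and 1.15% of all genes. Its call in females was Kcng3, which is a member only through control female 1: without that library the mean of Kcng3 was 0.431 CPM, under the minimum. The median log2 difference over the mean of both sexes was -0.09 for members and 0.02 for all genes.

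Kcnk16 had the smallest p in that mean. Its levels in females were 484, 466 and 541 CPM in knockouts and 364, 432 and 445 in controls. In males they were 629, 744 and 601 CPM in knockouts and 511, 434 and 498 in controls. The groups did not overlap in either sex. The log2 difference was 0.26 (SE 0.124) in females, 0.45 (SE 0.124) in males and 0.36 (SE 0.0877, 95% interval 0.17 to 0.55) in the mean, with an edgeR adjusted p of 0.524 and a DESeq2 adjusted p of 0.00577.

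The other member without overlap in both sexes was Kcnip2 (KChIP2), which binds Kv4 channels and raises their surface expression. Female knockouts had 7.51, 7.87 and 8.21 CPM and controls 3.57, 4.25 and 7.22. Male knockouts had 12.1, 12.9 and 20.5 CPM and controls 8.72, 10.1 and 6.42. The mean log2 difference was 0.74 (SE 0.198, 95% interval 0.30 to 1.18; edgeR adjusted p = 0.546, DESeq2 adjusted p = 0.0439). The 2 members without overlap in both sexes were 3.28% of the set, against 1.02% of all genes.

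Within 1 sex, the groups of 9 members (14.8%) did not overlap in females, against 12.6% of all genes. In males those of 13 members (21.3%) did not overlap, against 13.3%. Without Kcng3 and Kcnj5, which reached the minimum in controls only, these were 8 and 13 of 59 members. In females Kcnh2 had 42.5, 40.5 and 43.3 CPM in knockouts and 62.5, 56.0 and 53.3 in controls, a log2 difference of -0.44 (SE 0.131, edgeR adjusted p = 0.444). In males its knockout and control values overlapped, with a difference of -0.06 (SE 0.131). Kcng3, a silent subunit, had the largest difference in females at -2.97 (SE 0.890, adjusted p = 0.444), but this rested on control female 1 at 7.07 CPM. The other 2 control females had 0.928 and 0.513 CPM, the knockouts 0.505, 0.287 and 0.259, and without that library the difference was -1.02.

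Kcnh6 lay in opposite directions in the sexes of the whole-body line. Female knockouts had 22.7, 22.4 and 24.7 CPM and controls 35.7, 31.2 and 27.97, a log2 difference of -0.44 (SE 0.131). Male knockouts had 29.8, 26.6 and 32.2 CPM and controls 24.7, 18.9 and 23.3, a difference of 0.41 (SE 0.131). The difference between those effects was 0.85 (SE 0.185, 95% interval 0.44 to 1.25), with an edgeR adjusted p of 0.299 and a DESeq2 adjusted p of 0.00516. The same contrast in the beta-cell line was -0.35 (SE 0.187). No member was called for a male minus female knockout effect by edgeR in either line, where 0% of genes were. Kcnq5 (-2.07, SE 0.573) and Kcnab2 (-1.27, SE 0.380), a pore subunit and an accessory subunit, came next. DESeq2 called Kcnh6, Kcnq5 and Kcnab2 and 2.67% of all genes. By edgeR 8 members (13.1%) had an unadjusted p under 0.05, against 10.9% of all genes.

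**Figure D2:**
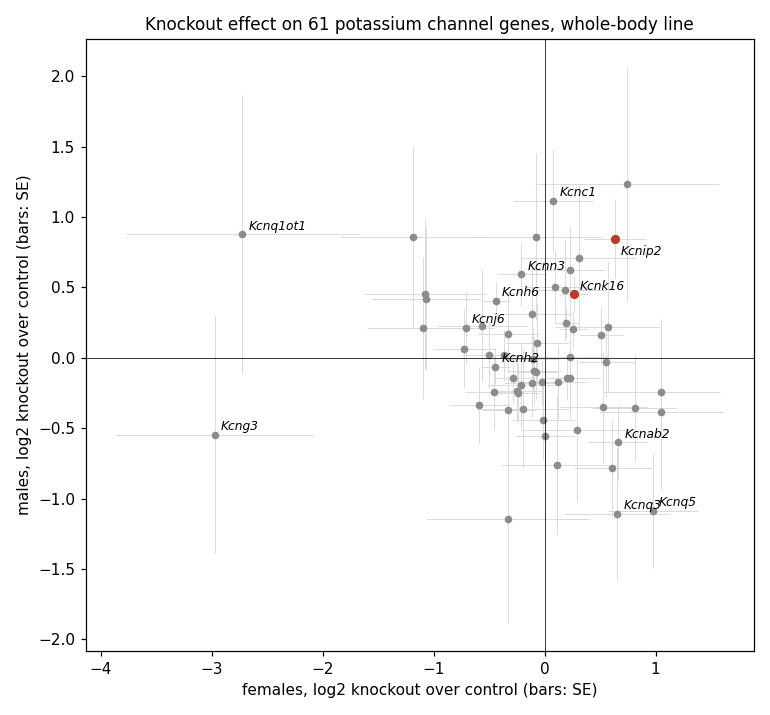
Log2 knockout over control of all 61 members in the whole-body line, females on the x axis and males on the y axis, with standard errors as bars. Red points are Kcnk16 and Kcnip2, whose groups did not overlap in either sex; Kcng3 lies far left at -2.97, and Kcnh6 lies at -0.44 in females and 0.41 in males.

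The summed level of 15 pancreatic acinar markers had a lower median in whole-body knockouts, at 2638 against 10881 CPM in females and 684 against 7579 in males. It ran from 1032 to 7853 CPM in knockout and 1872 to 46833 in control females, and from 324 to 1173 in knockout and 3653 to 10999 in control males. None of the 15 markers was called, and Rbpjl was at 0 in some libraries. With an acinar score as a covariate, the mean difference of Kcnk16 was 0.28 and that of Kcnip2 0.56. The part of acinar tissue in the other members' values was not tested. In the beta-cell line the summed acinar level ran from 28637 to 59412 CPM in knockout and 23727 to 28095 in control females. Its males had 4338 to 87370 CPM in knockouts and 37169 to 38361 in controls.

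Removal of Cpeb1 from beta cells likewise gave 0 called members in females, in males and in the mean of both sexes by edgeR, where 0.0123%, 0% and 0.0368% of 16284 genes were called. DESeq2 also called 0 members in each, and 0.178%, 0.117% and 0.238% of genes. At an unadjusted p under 0.05 there was 1 member in each, Kcna1 in males and Kcnf1 in the mean among them, 1.64% of the set against 3.11%, 1.85% and 3.65% of all genes. Groups of 2 animals often do not overlap: 17 members (27.9%) in females and 13 (21.3%) in males, against 31.6% and 26% of all genes. No member was without overlap in the same direction in both sexes, against 5.91% of all genes.

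Kcnf1 had 7.57 and 15.0 CPM in knockout females against 4.95 and 9.52 in controls, and 29.4 and 31.5 against 19.2 and 18.4 in males. The mean log2 difference was 0.67 (SE 0.268, unadjusted p = 0.0415 and adjusted p = 0.9997 in edgeR's quasi-likelihood test). Kcna1 (Kv1.1) had 1.78 (SE 0.745) in males from values of 0.250 to 0.969 CPM in knockouts and 0.173 to 0.177 in controls.

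The genes that stood out in the whole-body line had other values here. Kcnk16 had 500 and 642 CPM in knockout females against 497 and 448 in controls, and 582 and 591 against 602 and 461 in males. Its mean log2 difference was 0.21 (SE 0.120, 95% interval -0.07 to 0.49). Kcnip2 had 0.19 (SE 0.305, 95% interval -0.53 to 0.90) and Kcnh2 -0.00457 (SE 0.0985). The difference between the lines was 0.14 (SE 0.142) for Kcnk16 and 0.54 (SE 0.367) for Kcnip2. Over all 61 members, 0 were called for a difference between the lines, where 0.0184% of genes were, and 0 had an unadjusted p under 0.05, against 3.41%. The nearest were Kcna1 at -1.74 (SE 0.818) and Kcnh8 at -0.55 (SE 0.297), and Kcne3 had 1.32 (SE 0.865).

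**Figure D3:**
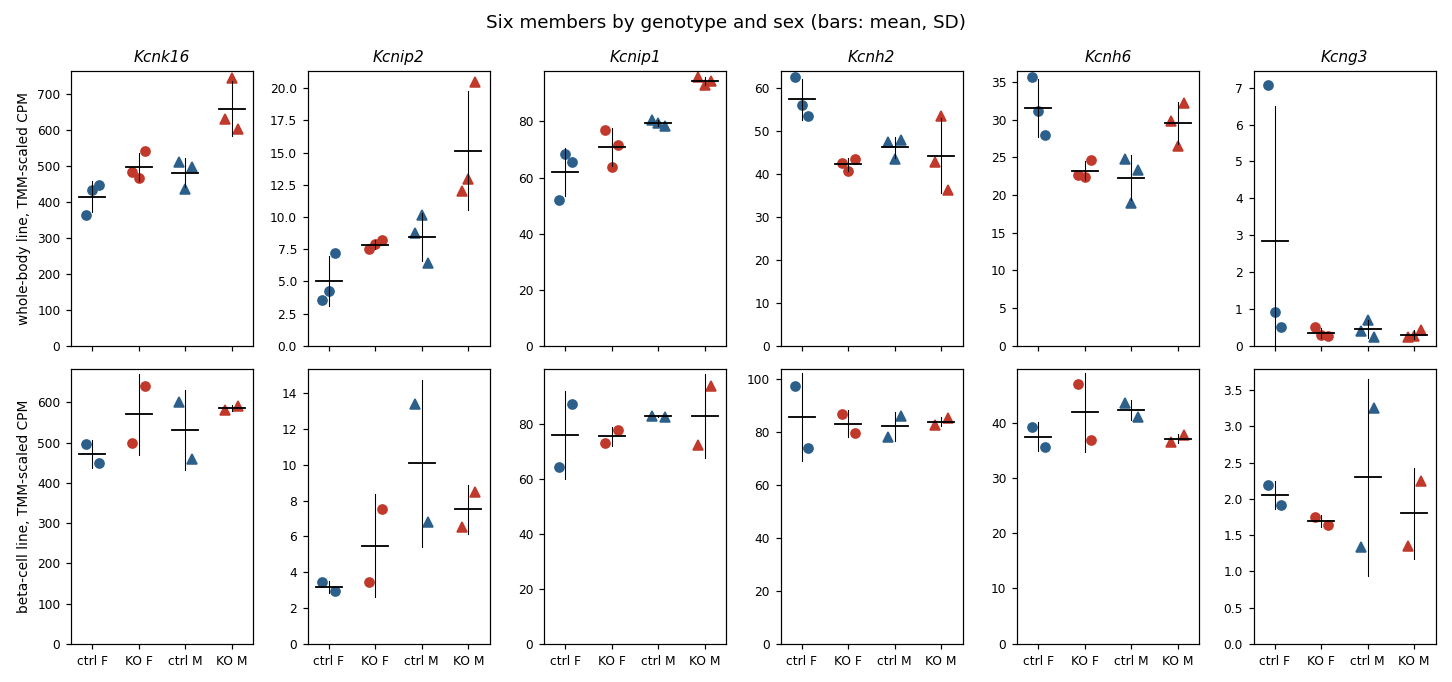
TMM-scaled CPM of 6 members in each library by genotype and sex, for the whole-body line (top) and the beta-cell line (bottom), with the mean and SD as black bars. In the whole-body line the knockout points of Kcnk16 and Kcnip2 lie above the controls of the same sex, and the high Kcng3 value of 7.07 CPM belongs to 1 control female.

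Members with and without a CPE in their last 100 bases had small differences in the whole-body mean. The 10 with an element had a median log2 difference of 0.16 (6 above 0), and the 50 without had -0.09 (19 above 0). Over all genes tested the medians were 0.01 with and 0.02 without an element. The same medians in the beta-cell line were 0.04 and -0.01 for members. Of the sites printed above, those of Kcnh1 belong to a gene with 0.51 (SE 0.200) in whole-body knockout females, and that of Kcnq3 to one with -1.11 (SE 0.474) in males, neither past the test. In the other sex the groups of both genes overlapped. Male Kcnh1 values were 30.6, 28.7 and 25.9 CPM in knockouts and 24.8, 20.9 and 30.3 in controls. Female Kcnq3 values were 1.49, 1.04 and 1.73 CPM in knockouts and 0.727, 0.565 and 1.38 in controls.

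Sex was the contrast in which potassium channel genes were called. In the whole-body line, averaged over genotypes, 11 of 61 members (18.03%) differed between males and females by edgeR, against 5.65% of all 18359 genes. Of these, 4 were higher in males (6.56%, against 3.49% of all genes) and 7 lower (11.5%, against 2.16%). Without the 4 members that reached the minimum in the mean of 1 sex only (Kcnc1, Kcng3, Kcnj5 and Kcnk10), 9 of 57 were called (15.8%), 4 higher (7.02%) and 5 lower (8.77%). The higher genes were Kcnh1, Kcnip1, Kcnip2 and Kcnk1. Among the lower genes were Kcnj5, Kcnj3, Kcnk2, Kcnc1 and Kcnd3. Between the beta-cell line sexes 0 members were called, where 0.104% of 16284 genes were, and 16 had an unadjusted p under 0.05 (26.2%, against 14.3% of all genes). The whole-body line had 21 at that level (34.4%, against 23.1%). Without the same 4 members it had 18 of 57 (31.6%). Within both genotypes, 9 members (14.8%) did not overlap between the whole-body sexes and 16 (26.2%) between the beta-cell line sexes, against 7.48% and 16.1% of all genes. Of the 57 members left without those 4, 8 did not overlap between the whole-body sexes. DESeq2 called 18 members in the whole-body line, against 16.1% of genes, and 9 in the beta-cell line, against 4.62%. Among those 9 were Kcnh1, Kcnip2, Kcnj3 and Kcnk2, called by edgeR in the whole-body line. The 18 whole-body calls of DESeq2 included Kcnc1 and Kcnj5, which reached the minimum only through females.

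Kcnj5 and Kcnj3, whose products join into G protein-gated inward rectifiers through which somatostatin and adrenaline can hyperpolarise cells, were lower in males. Kcnj3 (GIRK1) had 4.06 to 9.97 CPM in the 6 whole-body females, median 6.78, and 2.41 to 4.01 in the 6 males, median 3.20, without overlap (-1.07, SE 0.218, edgeR adjusted p = 0.0219). An antisense gene overlaps 31.1% of the Kcnj3 exon bases, and with the strand setting of the counting not given, reads of the pair cannot be told apart. Such overlaps cover 12.2% of Kcnk2, 8.01% of Kcnk1 and 1.72% of Kcnd3 among the called genes. Kcnj5 (GIRK4) passed the minimum only through females, so its whole-body difference is partly fixed by the selection. It ran from 0.391 to 1.94 CPM in females, median 0.908, and from 0.137 to 0.325 in males, median 0.184, without overlap (-2.20, SE 0.362, edgeR adjusted p = 0.00965).

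In the beta-cell line Kcnj3 ran from 6.03 to 7.66 CPM in 4 females and from 2.32 to 5.14 in 4 males, a difference of -0.87 (SE 0.270, unadjusted p = 0.0129, adjusted p = 0.241 in edgeR's quasi-likelihood test). The rule did not use this line, and Kcnj5 there overlapped between the sexes, with 0.911 to 1.70 CPM in females and 0.298 to 1.54 in males (-0.49, SE 0.534). The difference between the lines was -1.73 (SE 0.644, edgeR adjusted p = 0.193) for Kcnj5 and -0.21 (SE 0.355) for Kcnj3.

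Kcnh1 (EAG1, a voltage-gated channel) was higher in males. Whole-body females had 10.3 to 20.9 CPM, median 15.1, and males 20.9 to 30.6, median 27.3, without overlap within a genotype (0.86, SE 0.141, edgeR adjusted p = 0.00976). Beta-cell line females had 8.97 to 20.1 CPM and males 19.8 to 33.5 (1.10, SE 0.299, adjusted p = 0.221). Kcnip2, which also lay higher in whole-body knockouts, had 3.57 to 8.21 CPM in females and 6.42 to 20.5 in males (0.84, SE 0.198, adjusted p = 0.0356), and 1.05 (SE 0.308) in the beta-cell line. Kcnip1, its relative, had 52.0 to 77.1 CPM in females and 78.2 to 95.8 in males (0.39, SE 0.0771, adjusted p = 0.0206). Kcnk1 had 19.9 to 28.4 and 28.5 to 40.1 CPM (0.37, SE 0.0919, adjusted p = 0.0434).

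Voltage-gated genes lower in males included Kcnc1 and Kcnd3. Kcnc1 (Kv3.1), a member that passed the minimum only through females, had 0.573 to 1.12 CPM in whole-body females and 0.206 to 0.764 in males, with overlap between the sexes (-1.07, SE 0.257, adjusted p = 0.0370 in edgeR's quasi-likelihood test). Kcnd3 (Kv4.3) is one of the Kv4 channels that KChIP proteins bind. It had 1.40 to 2.18 CPM in females and 0.599 to 1.38 in males, without overlap (-0.77, SE 0.187, edgeR adjusted p = 0.0387). Kcnd3 in the beta-cell line had 2.48 to 3.44 CPM in females and 0.868 to 2.09 in males (-1.02, SE 0.349). Kcnk2 (TREK-1, a mechanically and lipid-gated two-pore channel) had 1.51 to 2.27 CPM in females and 0.714 to 1.36 in males (-0.85, SE 0.201, adjusted p = 0.0358).

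**Figure D4:**
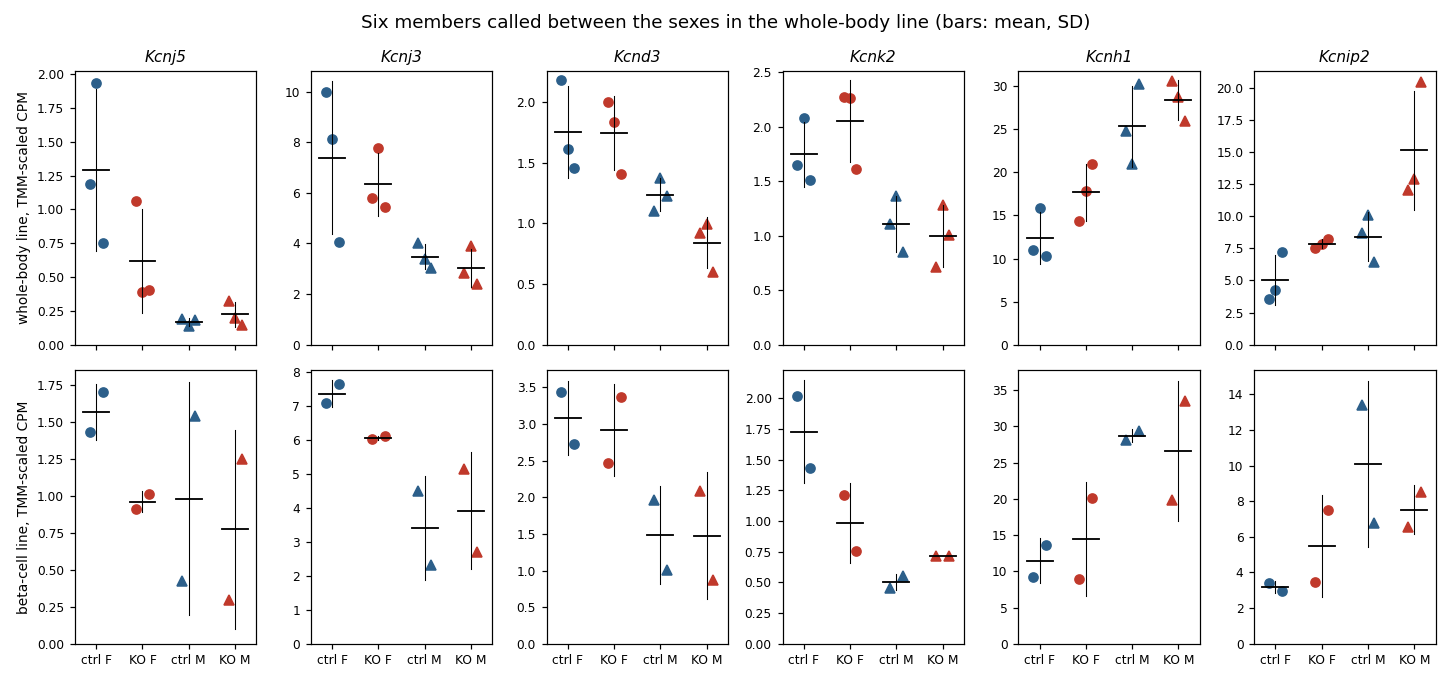
TMM-scaled CPM of 6 members called between the sexes, in each library by genotype and sex, for the whole-body line (top) and the beta-cell line (bottom), with the mean and SD as black bars. Kcnj5 separates the sexes in the whole-body line and overlaps in the beta-cell line, while Kcnj3, Kcnd3, Kcnk2 and Kcnh1 lie in the same direction in both.

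Of the 11 called members, 10 had the same direction in the beta-cell line, the exception being Kcnk1 (-0.05, SE 0.0975). Among all 1019 called genes tested in both lines, 68.5% had the same direction. The beta-cell libraries are other animals than those the calls were made on. There, 5 of the 11 had an unadjusted p under 0.05 (Kcnh1, Kcnip2, Kcnj3, Kcnk2 and Kcnd3), against 24.4% of all called genes. In the mean of both lines 14 of 61 members were called, against 6.5% of all genes. The smallest adjusted p values by edgeR there were 0.00183 for Kcnh1 and 0.00212 for Kcnk2. That mean includes the whole-body libraries on which the calls were made. Kcnj5, a member only through females, was among the 14 (edgeR adjusted p = 0.0238). For the difference between the lines 0 members were called, where 0.0307% of genes were, and 9 had an unadjusted p under 0.05 (14.8%, against 16.6% of all genes).

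Other genes led in the beta-cell line. Kcna2 (Kv1.2) had 7.29 to 9.17 CPM in females and 12.4 to 16.0 in males, without overlap (0.81, SE 0.109, edgeR adjusted p = 0.0746). Kcnf1 had 4.95 to 15.0 and 18.4 to 31.5 CPM (1.41, SE 0.271, adjusted p = 0.158). Kcnip3 (calsenilin) had 8.71 to 10.3 CPM in females and 3.33 to 7.56 in males (-0.99, SE 0.236, adjusted p = 0.174), and its whole-body difference was -0.63 (SE 0.165, adjusted p = 0.0516). Kcnb2 had 0.48 (SE 0.120) and Kcnk3 -0.77 (SE 0.213). Kcnk3 had -0.58 (SE 0.171, adjusted p = 0.0752) in the whole-body line, while Kcna2 had 10.3 to 24.9 CPM in females and 8.50 to 17.3 in males there.

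**Figure D5:**
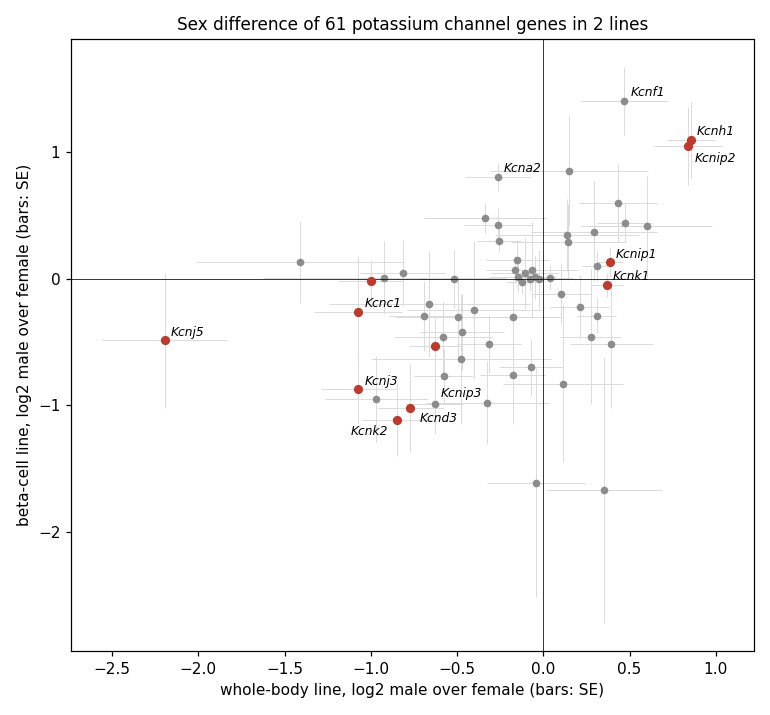
Log2 male over female of all 61 members in the whole-body line (x axis) and the beta-cell line (y axis), with standard errors as bars. Red points are the 11 members called in the whole-body line; 10 of them have the same sign in both lines, and Kcnh1 lies at 0.86 and 1.10. Kcnj5, at -2.20 on the x axis, is a member only through its level in females.

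The calls depended on single animals. Kcnh1 was called in all 12 fits that left out 1 whole-body library, as was Kcnj5, whose difference the selection partly fixes. Kcnj3 was called in 9, losing the call without knockout male 3, control male 1 or control male 2. Kcnip1 was called in 7, losing it without knockout female 2 or 3, knockout male 3, control male 1 or control male 2. Kcnip2, Kcnk2, Kcnc1, Kcnd3 and Kcnk1 were called in 3 of 12. Kcnip2 lost the call without any library other than control female 3, knockout male 1 or control male 3. Kcnk2 lost it without any but control female 1, control female 3 or knockout male 2, and Kcnc1 without any but knockout female 1, control female 2 or control female 3. Kcnd3 and Kcnk1 lost it without any but control female 2, control female 3 or knockout male 1. The direction stayed in each of these fits, and the largest adjusted p among them was 0.112 by edgeR.

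Age and the makeup of the islets moved with sex. Whole-body females included the oldest animals, of 165 and 188 days. With age as a covariate 3 members and 3.36% of all genes were called by edgeR. Among them were Kcnh1 (edgeR adjusted p = 0.0355) and Kcnj5 (edgeR adjusted p = 0.0256). The difference of Kcnj5 is partly fixed by the selection. Of 8 alpha cell markers, 6 were lower and 1 higher in whole-body males, and 3 were lower in beta-cell line males. Their summed level in the whole-body line was 41760 to 58816 CPM in control and 49895 to 61028 in knockout females, against 29755 to 36841 in control and 24744 to 43193 in knockout males. Beta-cell line values were 78795 to 125904 and 68285 to 69812 CPM in females, against 36855 to 40549 and 29491 to 30823 in males. No alpha marker was at 0 in any library. Of 9 beta cell markers 3 were higher in whole-body males, and 4 of 4 red blood cell markers were. Of 6 delta cell markers 2 were lower in beta-cell line males.

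With the mean alpha marker score as a covariate, 0 members and 142 genes (0.773%) were called between the sexes of the whole-body line. The estimates moved unequally. Kcnh1 went from 0.86 to 1.06 and Kcnk1 from 0.37 to 0.61, and Kcnj5 from -2.20 to -1.85. Kcnj3 went from -1.07 to 0.06 and Kcnip2 from 0.84 to 0.17. The smallest adjusted p among the 11 was 0.166 by edgeR. The score differs between the sexes, so the fit cannot fully tell sex from alpha cell content.

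The start regions of Kcnj3 and Kcnj5, lower in males, and of Kcnh1, higher in males, are shown for comparison. The 240 bases ending 10 bases before the RefSeq transcription start (GRCm38.p6) are printed 5′ to 3′ on the gene's strand, and were searched on both strands for the half-sites of the oestrogen receptor (AGGTCA or TGACCT) and of the androgen receptor (AGAACA or TGTTCT). Capitals mark a match.
Kcnj3 (chr2:55435720-55435959, plus strand): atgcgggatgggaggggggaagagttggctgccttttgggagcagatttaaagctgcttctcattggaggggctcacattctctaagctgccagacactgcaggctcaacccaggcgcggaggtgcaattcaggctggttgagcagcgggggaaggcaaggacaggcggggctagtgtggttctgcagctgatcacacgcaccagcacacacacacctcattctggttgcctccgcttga
Kcnj5 (chr9:32344355-32344594, minus strand): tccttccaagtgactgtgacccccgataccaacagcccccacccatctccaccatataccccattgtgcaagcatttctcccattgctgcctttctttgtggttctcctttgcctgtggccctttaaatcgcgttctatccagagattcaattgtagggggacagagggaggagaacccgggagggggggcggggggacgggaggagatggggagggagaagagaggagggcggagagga
Kcnh1 (chr1:192190527-192190766, plus strand): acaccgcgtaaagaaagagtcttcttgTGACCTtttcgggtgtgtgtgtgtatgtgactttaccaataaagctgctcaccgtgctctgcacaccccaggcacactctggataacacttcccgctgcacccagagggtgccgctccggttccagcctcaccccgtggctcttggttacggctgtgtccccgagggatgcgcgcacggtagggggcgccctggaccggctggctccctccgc
Kcnh1 held 1 match, TGACCT, and the other two held none. Of 32851 windows of this length in the table, 13.5% held the first and 15.5% the second motif.

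Other genes of islet excitability were taken as lists of KATP, calcium, sodium, cation and chloride channels and potassium channel partners. They gave 0 calls by edgeR in every knockout comparison, where 0% to 0.0368% of all genes were called. Between the sexes of the whole-body line, 3 of 15 calcium channel genes were called lower in males, against 2.16% of all genes. These were Cacna2d3 at -1.01 (SE 0.168), Cacna1g, a T-type channel, at -0.85 (SE 0.189) and Cacna1b, the N-type channel, at -0.68 (SE 0.161). Of 15 tested partners, 1 was called higher and 3 lower, against 3.49% and 2.16% of all genes. The lower partners were Dpp6 (-0.66, SE 0.130), Stx1a (-0.47, SE 0.112) and Lrrc55 (-2.06, SE 0.495). Lrrc55 had 6.80, 10.9 and 1.14 CPM in control females against 0.363 to 0.685 in control males, while knockout females (0.434 to 0.847) and knockout males (0.258 to 0.723) overlapped. Its edgeR adjusted p was 0.0576 without control female 1 and 0.0573 without control female 2. Over the 12 fits that left out 1 library, Cacna2d3 was called in 12, Dpp6 in 10, Cacna1g and Cacna1b in 4, Lrrc55 in 2 and Stx1a in 1. Dpp6 is a partner of Kv4 channels such as Kcnd3. None of 3 KATP, 11 sodium or 19 cation and chloride channel genes was called between those sexes, where 5.65% of all genes were. Kcnj11 itself had 0.01 (SE 0.0733) for the mean whole-body knockout and -0.15 (SE 0.0733) for sex, and its partner Abcc8 had -0.22 (SE 0.0856) and -0.05 (SE 0.0856).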

How the data were processed

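Islet poly(A) RNA libraries were aligned with STAR 2.5.3a and quantified with RSEM 1.3.0 on mm10, per the submitters' processing notes. The deposited values are expected counts per gene held as whole numbers. The gene annotation, strand setting and use of molecular identifiers in counting are not given in the sources used here. The beta-cell tables list fewer genes (16612 for females and 16767 for males), and the 16284 in both were used.

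Each line was fitted apart in edgeR 4.0.16 (R 4.3.3): TMM scaling, its filter on low counts (18359 and 16284 genes tested, all 61 members among them), 1 mean per genotype and sex, and a quasi-likelihood test with Benjamini-Hochberg adjustment over all genes, called at an adjusted p under 0.05. A fit over all 20 libraries compared effects between lines. The labels call the samples biological replicates or numbered replicates, and the spread is that between these samples. DESeq2 1.42.0 and limma-voom 3.58.1 were alternatives. The pipeline was run on simulated counts whose spread between samples was set below that of either line. That run does not show which differences could be detected in these data. Levels per kb used union exon lengths of GENCODE models (94.1% of identifiers matched), and the within-group SD a pseudocount of 0.1 CPM.

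Named members are the 10 highest per kb, each family's highest, every called member, and the 3 with the smallest p per direction in each comparison. Some of these are not reported here. The members, lists and rules were chosen with earlier results of these data known.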

Additional observations from a re-analysis of the deposited data

How the results depend on the processing

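Over 71 pairs of a member and a comparison, 1350 values under alternatives kept direction and side of the threshold in 1206, lost the call in 124, gained it in 18 and reversed in 2. Only the 11 pairs called at first, all between whole-body sexes, could lose a call, so all 124 losses fell on them. For the other pairs, keeping the side of the threshold meant staying uncalled, so 1206 is not a measure of how stable the calls were. The reversals came with the alpha marker score as covariate: Kcnj3 between whole-body sexes (0.062, edgeR adjusted p = 0.949) and Kcnk3 between beta-cell line sexes (0.62, adjusted p = 0.963); the cause was not tested. The 11 members called between whole-body sexes became 18 with DESeq2, 6 with no filter on low counts (2.5% of all genes called), 3 with age (3.36%), 5 with age and acinar score (8.5%) and 0 with the alpha score (0.773%) as covariates, 1 in controls only (0.572%) and 0 in knockouts only (0.229%), and 3 to 13 when 1 library was left out. All genes called in that comparison, 1037 at first, ranged from 42 to 2660 over the same settings. The 1 member called in controls only was Kcnj5 (edgeR adjusted p = 0.0393), whose difference is partly fixed by the selection. Kcnj5 was also among the members called with DESeq2, with no filter, with age, with age and acinar score, and with the replicate block below. DESeq2 called 1 member in whole-body females (Kcng3, a member only through control female 1), 1 (Kcnk16) in males, 2 (Kcnk16 and Kcnip2) in the mean and 3 (Kcnh6, Kcnq5 and Kcnab2) in the male minus female effect, against 0 by edgeR, and 9 against 0 between beta-cell line sexes. Leaving out any 1 library kept 0 members called by edgeR in each knockout comparison. With a replicate block the whole-body sex count was 4 (1.39% of all genes called) and the beta-cell line sex count 10 (4.7%); the block changed no knockout count of members. Same-numbered whole-body animals did not deviate together (correlations from -0.25 to 0.20). In the beta-cell line same-numbered animals had the same age (0.23 in females, 0.43 in males), but the labels state no shared litter, and the block lies within a sex, so spread between pairs leaves the sex test. The alternatives with 1 genotype, both lines, age with acinar score, the alpha score, and without members that reached the minimum in 1 sex only (9 called) were chosen after seeing the data. With 3 or 2 animals a group, members at 0.5 to 3 CPM limit what could be detected.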
